A study of Homo sapiens with 9 samples.

Results

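vtRNA1-2 knockout (1-2 KO) cells were compared with wild type (WT) cells of Huh-7, a human hepatocellular carcinoma line that secretes plasma proteins as hepatocytes do. The comparison was made up of 3 libraries of 1-2 KO and 3 of WT, which are 6 of the 9 libraries of the series. The other 3 libraries, from cells lacking vtRNA1-1, entered the fit to estimate the spread between libraries and are otherwise set beside the results as background. The samples were chosen by their labels, so that no measured value decided which libraries were compared. WT cells carried all vtRNA genes. In 1-2 KO cells VTRNA1-2 had been removed with CRISPR/Cas9 by guides on both sides of the gene, and the line was 1 single-cell clone of the WT cells, so that what the clone brought with it and the loss of vtRNA1-2 cannot be told apart. All cells were grown without a treatment in complete medium. The study calls the libraries of a line biological replicates, and the labels give them a replicate number only. Whether they came from separate cultures is not given in the sources used here, so that the p-values below measure the spread between these libraries, part of which may be technical. Since RNA was taken from whole cultures, fewer cells of a kind and less RNA per cell cannot be told apart.

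Vault RNAs are short noncoding RNAs made by RNA polymerase III. They owe their name to the vault, a large ribonucleoprotein particle of the cytoplasm in which part of them is found, while most of the vtRNA in a cell is outside the particle. Human cells have several paralogs, and the best studied, vtRNA1-1, has been tied to autophagy and to resistance against apoptosis.

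The gene removed in 1-2 KO cells, VTRNA1-2 (ENSG00000202111), is annotated at chr5:140718925-140719013 on the plus strand of GRCh38, between VTRNA1-1 at chr5:140711275-140711373 and VTRNA1-3 at chr5:140726158-140726246 on the same strand. The sequences are shown because they make plain which RNA the knockout lacks and how close its paralogs are. They are given 5′ to 3′ from the GENCODE 44 transcripts, and capitals in the paralogs mark positions that differ from VTRNA1-2 in a global alignment.
VTRNA1-2: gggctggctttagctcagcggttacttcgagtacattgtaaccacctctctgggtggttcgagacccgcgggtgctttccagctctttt
VTRNA1-1: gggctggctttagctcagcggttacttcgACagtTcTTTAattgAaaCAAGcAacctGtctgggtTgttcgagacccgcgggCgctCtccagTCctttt
VTRNA1-3: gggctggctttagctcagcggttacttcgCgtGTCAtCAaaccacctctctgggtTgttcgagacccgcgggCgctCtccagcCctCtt
VTRNA1-2 has 89 nt, VTRNA1-1 has 99 nt and 80.8% identity with it over the alignment, and VTRNA1-3 has 89 nt and 86.5% identity. The paralogs share the start of the molecule and differ most in its middle. The libraries were made from polyadenylated RNA, which vault RNAs are not, and hence they do not show the loss of vtRNA1-2. VTRNA1-2 had 0 counts in each WT and 1-2 KO library, VTRNA1-3 had between 0 and 2, and the 1 count of VTRNA1-1 fell in WT replicate 1.

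The libraries held 40760513, 38441433 and 32384469 counts in WT and 41000063, 39464230 and 39932647 counts in 1-2 KO. Of 60664 genes in the table, 17207 had enough counts to be tested. Levels are read counts scaled to CPM with TMM-normalized library sizes, given for replicates 1, 2 and 3 in this order or as mean ± SD with n = 3 libraries. CPM are not divided by gene length and are compared only between libraries, not between genes. Changes are log2 fold changes of 1-2 KO against WT with their standard error (SE), and every adjusted p is from the quasi-likelihood test of edgeR, adjusted by Benjamini-Hochberg across the tested genes. DEGs are genes whose adjusted p was below 0.05. Between libraries of a line, edgeR estimated a common biological coefficient of variation of 5.55%. The spread was not equal among the libraries, and 1-2 KO replicate 1 stood apart from replicates 2 and 3. Tested as counts per gene, replicates 2 and 3 had a chi-square of 2.68 per degree of freedom, whereas replicate 1 differed from them with 15.29 and 16.23. The WT libraries differed from each other with 5.05 to 10.42. How replicate 1 departs is described below, and values without it are given where a call or a count changed most.

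Of the tested genes, 54.4% were DEGs in 1-2 KO compared to WT, 4844 of them upregulated (28.2%) and 4511 downregulated (26.2%). The balance moved with the scaling: when libraries were scaled only by their totals, 5729 rose and 3803 fell. A rise of over 1 on the log2 scale was seen in 1483 DEGs (8.62%) and a fall of this size in 527 (3.06%). Of the 13659 tested protein-coding genes 61.5% were DEGs, of the 1811 lncRNA genes 30.9% and of the 1567 pseudogenes 22%. For 10055 genes (58.4%), all 3 knockout libraries lay above or all 3 lay below the WT libraries. Among the upregulated DEGs, 4544 (93.8%) had such separate groups, and among the downregulated DEGs 4346 (96.3%). Without 1-2 KO replicate 1, 4693 DEGs were upregulated and 4348 downregulated, and 8504 of the DEGs were shared with those found with it.

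**Figure D1:**
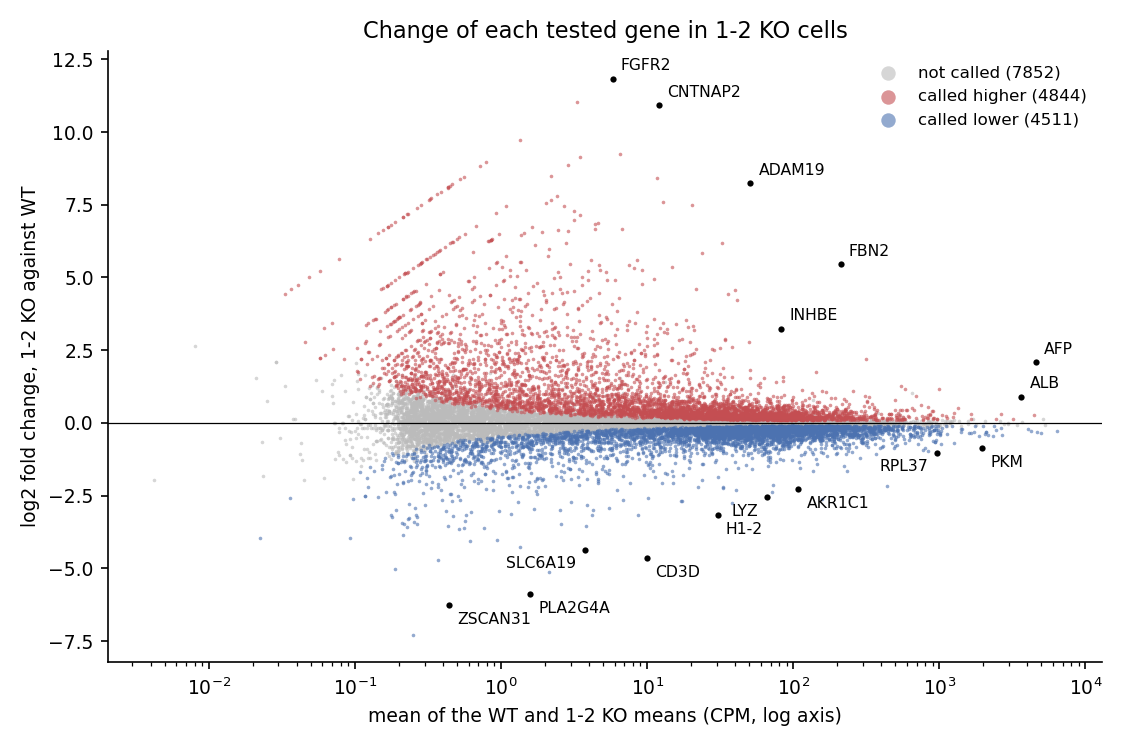
Each point is 1 of the 17207 tested genes, with the mean of the WT and 1-2 KO means in CPM on a log axis (x) and the log2 fold change of 1-2 KO against WT (y). DEGs are red where higher (4844) and blue where lower (4511) in 1-2 KO, genes not called are grey, and the largest changes, such as those of FGFR2, CNTNAP2 and ADAM19, lie on the upper side.

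The largest gain in mRNA was that of AFP, the alpha-fetoprotein of fetal liver and of many liver tumours (chr4:73431138-73456174, GRCh38). Its level was 1729, 1837 and 1710 CPM in WT and 7037, 7649 and 7571 CPM in 1-2 KO, a rise of 4.22-fold (log2 fold change 2.08, SE 0.04, adjusted p = 1.08e-13). ALB, serum albumin, lies beside it at chr4:73397114-73421482 and rose from 2526, 2589 and 2479 CPM to 4415, 4907 and 4893 CPM, which is 1.87-fold (log2 fold change 0.90, adjusted p = 5.60e-10). In both genes the lines were far apart, and 1-2 KO replicate 1 was the lowest of the knockout libraries. Genes of matrix and cytoskeleton were among the other large gains. COL5A2, a collagen V chain, rose from 651, 591 and 591 to 1304, 1434 and 1423 CPM (2.27-fold), and TAGLN, an actin-binding protein of smooth muscle, rose 2.22-fold from 374, 347 and 365 CPM. FADS2, which desaturates polyunsaturated fatty acids, rose 2.44-fold and JAG1, a Notch ligand, 1.89-fold. GSTP1, a glutathione transferase, rose 1.42-fold. The 8 largest gains also held ACTB, with 3910, 3735 and 4402 CPM in WT and 5388, 4515 and 4611 CPM in 1-2 KO. For ACTB the lowest knockout library lay just above the highest WT library, and its log2 fold change of 0.27 was 0.18 without replicate 1.

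The largest loss of mRNA in CPM was that of FN1, the fibronectin of blood plasma and matrix, which fell 1.27-fold from 5730, 5503 and 5569 to 4126, 4485 and 4589 CPM. The other 7 of the 8 largest losses were genes of glycolysis, translation and mitochondrial DNA. PKM, the pyruvate kinase of most tissues other than adult liver, fell from 2588, 2448 and 2527 to 1342, 1376 and 1459 CPM, a change of 1.81-fold (log2 fold change -0.86, SE 0.04, adjusted p = 3.82e-10). GAPDH fell 1.32-fold from 3135, 3055 and 3025 CPM and ENO1, the enolase next to PKM in the pathway, 1.37-fold from 2788, 2661 and 2626 CPM. EEF1A1, the elongation factor that brings tRNA to the ribosome, went from 7042, 6964 and 6888 to 5366, 5893 and 6069 CPM, or 1.21-fold lower. RPL37, a protein of the large ribosomal subunit, had the largest fold among these 8, from 1255, 1311 and 1298 to 579, 646 and 685 CPM (2.02-fold, log2 fold change -1.02). MT-CO2 and MT-CO3, subunits of cytochrome c oxidase that mitochondria encode themselves, fell 1.25-fold and 1.20-fold. The MT-CO2 level ran from 4593 to 5882 CPM among WT libraries and from 3824 to 4488 CPM among knockout libraries, so that the lines were separate by less than the spread within WT.

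Among genes with more than 3 counts in every library, ADAM19 rose most. This membrane-bound metalloprotease (chr5:157395534-157575775) had 0.427, 0.267 and 0.285 CPM in WT and 98.9, 104 and 100 CPM in 1-2 KO (log2 fold change 8.24, SE 0.11, adjusted p = 2.05e-15). PAK5, a p21-activated kinase of brain, followed with a rise of 194-fold to 23.7, 26.3 and 26.9 CPM, and FAT3, an atypical cadherin, with 182-fold to 37.1, 41.8 and 41.3 CPM. CACNA1H, a T-type calcium channel, went from 0.854, 0.747 and 1.05 to 73.8, 58.9 and 60.1 CPM, and CNTN1, an adhesion protein of axons, from 0.704, 1.12 and 0.571 to 44.6, 47.7 and 48.4 CPM. These genes were near the limit of detection in WT and well measured in every knockout library. FBN2, the fibrillin of fetal microfibrils (chr5), had a higher start and rose from 8.67, 10.2 and 9.26 to 384, 427 and 424 CPM (43.8-fold, log2 fold change 5.45, SE 0.06). The other 2 of the 8 were ADGRD1, an adhesion G protein-coupled receptor, with 49.5-fold, and PI3, the elastase inhibitor elafin, with 49.6-fold.

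A further 233 genes were at 3 counts or fewer in every WT library and were upregulated DEGs with separate groups, and 11 of them reached a mean of 5 CPM in 1-2 KO. Folds of genes at this floor were computed against 3 counts per library of the line at the floor, and "at least" refers to that floor. They carry no confidence limit. Where the counts were close to the floor, as the 3, 3 and 2 counts of SI in WT, counting error could place the fold lower. CNTNAP2, an adhesion protein of the neurexin family, had 1 count in WT replicate 1 and none in the other WT libraries, and stood at 22.1, 25.4 and 24.7 CPM in 1-2 KO, at least 288-fold higher. EPHA7, an ephrin receptor, was at least 155-fold higher at 13.3, 13.5 and 12.1 CPM. FGFR2, a receptor for fibroblast growth factors, had no count in WT and 11.5, 11.4 and 12.1 CPM in 1-2 KO, at least 139-fold higher. The others were SI, the sucrase of the intestinal brush border, at least 105-fold, PTPRD, a receptor tyrosine phosphatase, at least 83.3-fold, and CA4, a membrane-bound carbonic anhydrase, at least 83.1-fold higher. In the opposite direction, 28 downregulated DEGs were at the floor in 1-2 KO, and 0 of them had reached 5 CPM in WT. PLA2G4A, the cytosolic phospholipase A2 that frees arachidonic acid, went from 3.19, 3.20 and 2.95 CPM to 3 counts or fewer and was at least 42.2-fold lower. ZSCAN31, a zinc-finger protein, was at least 11.8-fold lower, BTBD19 at least 9.68-fold, MAGEB1, a cancer-testis antigen, at least 6.72-fold and C7, a complement component, at least 6.55-fold. The lncRNA gene ENSG00000255746 was at least 6.46-fold lower.

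The largest falls among genes with counts in every library included genes known from blood cells and vessels. CD3D, a chain of the T cell receptor complex, was at 18.5, 19.7 and 19.1 CPM in WT and 0.499, 1.08 and 0.699 CPM in 1-2 KO (25.2-fold, log2 fold change -4.66, SE 0.15, adjusted p = 1.04e-11). CD38, an ectoenzyme of lymphocytes, fell 11.7-fold, PECAM1, an adhesion protein of endothelium and platelets, 9.02-fold, and UNC13D, which primes cytotoxic granules, 7.95-fold. SLC6A19, the amino acid transporter of the brush border, fell 20.7-fold from 7.14, 6.05 and 8.21 CPM. H1-2, a linker histone, went from 54.3, 55.8 and 53.8 to 5.74, 6.23 and 6.16 CPM (9.03-fold, log2 fold change -3.18, SE 0.06). S100A4, a calcium-binding protein of motile cells, fell 9.02-fold and PLAC8 7.62-fold.

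Markers of 6 cell types were read next, to check the labelled cell type and the kinds of cells that the fallen blood and vessel genes are known from. All 12 hepatocyte markers were tested, and 4 were higher and 5 lower in 1-2 KO, with a summed level of 15255 to 16017 CPM in WT and 15656 to 17203 CPM in 1-2 KO. ALB and AHSG, another plasma protein of the liver, rose 1.87-fold and 1.73-fold, FGA, a fibrinogen chain, fell 1.96-fold and TTR, which carries thyroid hormone, 1.56-fold, while SERPINA1 at 827 to 854 CPM in WT and 831 to 910 CPM in 1-2 KO did not pass the test. HNF4A, the transcription factor of hepatocyte identity, was at 254 to 267 CPM in WT and 282 to 315 CPM in 1-2 KO. The defining genes of the hepatocyte were thus well measured in each library. Of 8 tested leukocyte markers 3 rose and 3 fell. LYZ, lysozyme, fell from 113, 114 and 114 to 19.1, 19.7 and 18.9 CPM (5.90-fold), whereas PTPRC, the CD45 antigen of all leukocytes, rose from 0.151, 0.213 and 0.0951 to 1.12, 0.979 and 0.898 CPM. Their summed level was 135 to 137 CPM in WT and 25.2 to 25.7 CPM in 1-2 KO. MS4A1 and NKG7, which define B cells and natural killer cells, had 0 counts in all of these libraries, and CD3E, the partner of CD3D, had between 0 and 4. Of 6 tested endothelial markers 2 rose and 3 fell, with a summed level of 34.7 to 44.2 CPM in WT and 34.9 to 39.9 CPM in 1-2 KO. Only 1 of these markers averaged 5 CPM or more in 1-2 KO. EGFL7 had a log2 fold change of 0.46. LYVE1, a hyaluronan receptor, fell 7.93-fold from 4.57, 4.56 and 4.44 CPM. FLT1, a VEGF receptor, had 0, 0 and 1 counts in WT and 16, 11 and 10 counts in 1-2 KO and was at least 3.62-fold higher. ESAM fell 1.38-fold and was not called without replicate 1 (log2 fold change -0.34, adjusted p = 0.0818 in edgeR). KDR, the VEGF receptor that defines endothelium, had 0 counts in every library, and CDH5, its cadherin, had between 1 and 7.

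Cholangiocyte, enterocyte and fibroblast markers moved in both directions. Of 12 tested cholangiocyte markers 6 rose and 3 fell. SPP1, osteopontin, rose 3.36-fold from 62.3, 68.7 and 64.6 CPM, and SOX9, the transcription factor of bile duct cells, fell 1.42-fold from 76.2, 76 and 85 CPM. Their summed level was 581 to 612 CPM in WT and 844 to 942 CPM in 1-2 KO. Of 12 tested enterocyte markers 5 rose and 4 fell. CDX2, the transcription factor of intestinal epithelium, rose 8.71-fold to 19.4, 16.4 and 17 CPM and CDH17, an intestinal cadherin, 2.32-fold, while TM4SF5 fell 2.03-fold. CDX1 had 0 counts in every library, and the summed level was 1103 to 1185 CPM in WT and 950 to 1027 CPM in 1-2 KO. Of 11 tested stellate cell and fibroblast markers 6 rose and 3 fell. PDGFRB rose 3.69-fold to 6.39, 6.88 and 6.34 CPM and COL1A2, a collagen I chain, 1.97-fold, and LUM, lumican, fell 2.53-fold from 159, 162 and 151 CPM. The fibroblast markers summed to 1401 to 1430 CPM in WT and to 1511 to 1596 CPM in 1-2 KO. The part of other cell types in these results was not tested beyond these levels.

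To describe the change by pathway, the tested members of 52 gene lists, the cell types included, were counted as upregulated and downregulated beside the background of 28.2% and 26.2%. Of the 10498 genes averaging 5 CPM or more in 1-2 KO, 63.5% were DEGs, 3178 upregulated and 3484 downregulated. For lists made up mostly of such genes, as those of ribosome, proteasome and respiratory chain, the background over all tested genes is thus too low, above all for falls. No list was tested as a set. The all-gene median log2 fold change was 0.02, or 0.07 when only library totals were used, and the total number called, both directions together, kept within 1.5 times under that scaling and without replicate 1 in each of the 52 lists. Counts of a single direction could move by more, and this is given for translation and mitochondria below and for the other lists at the end. The lists with the largest surplus of downregulated members were NRF2 antioxidant targets, mitosis, ribosome biogenesis and clustered histone genes. Those with the largest surplus of upregulated members were targets of ATF4, cancer-testis antigens, interferon-stimulated genes and HOX genes. Only 13 of 100 listed cancer-testis antigens were tested, and members silent in WT were tested only where a knockout line had counts.

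**Figure D2:**
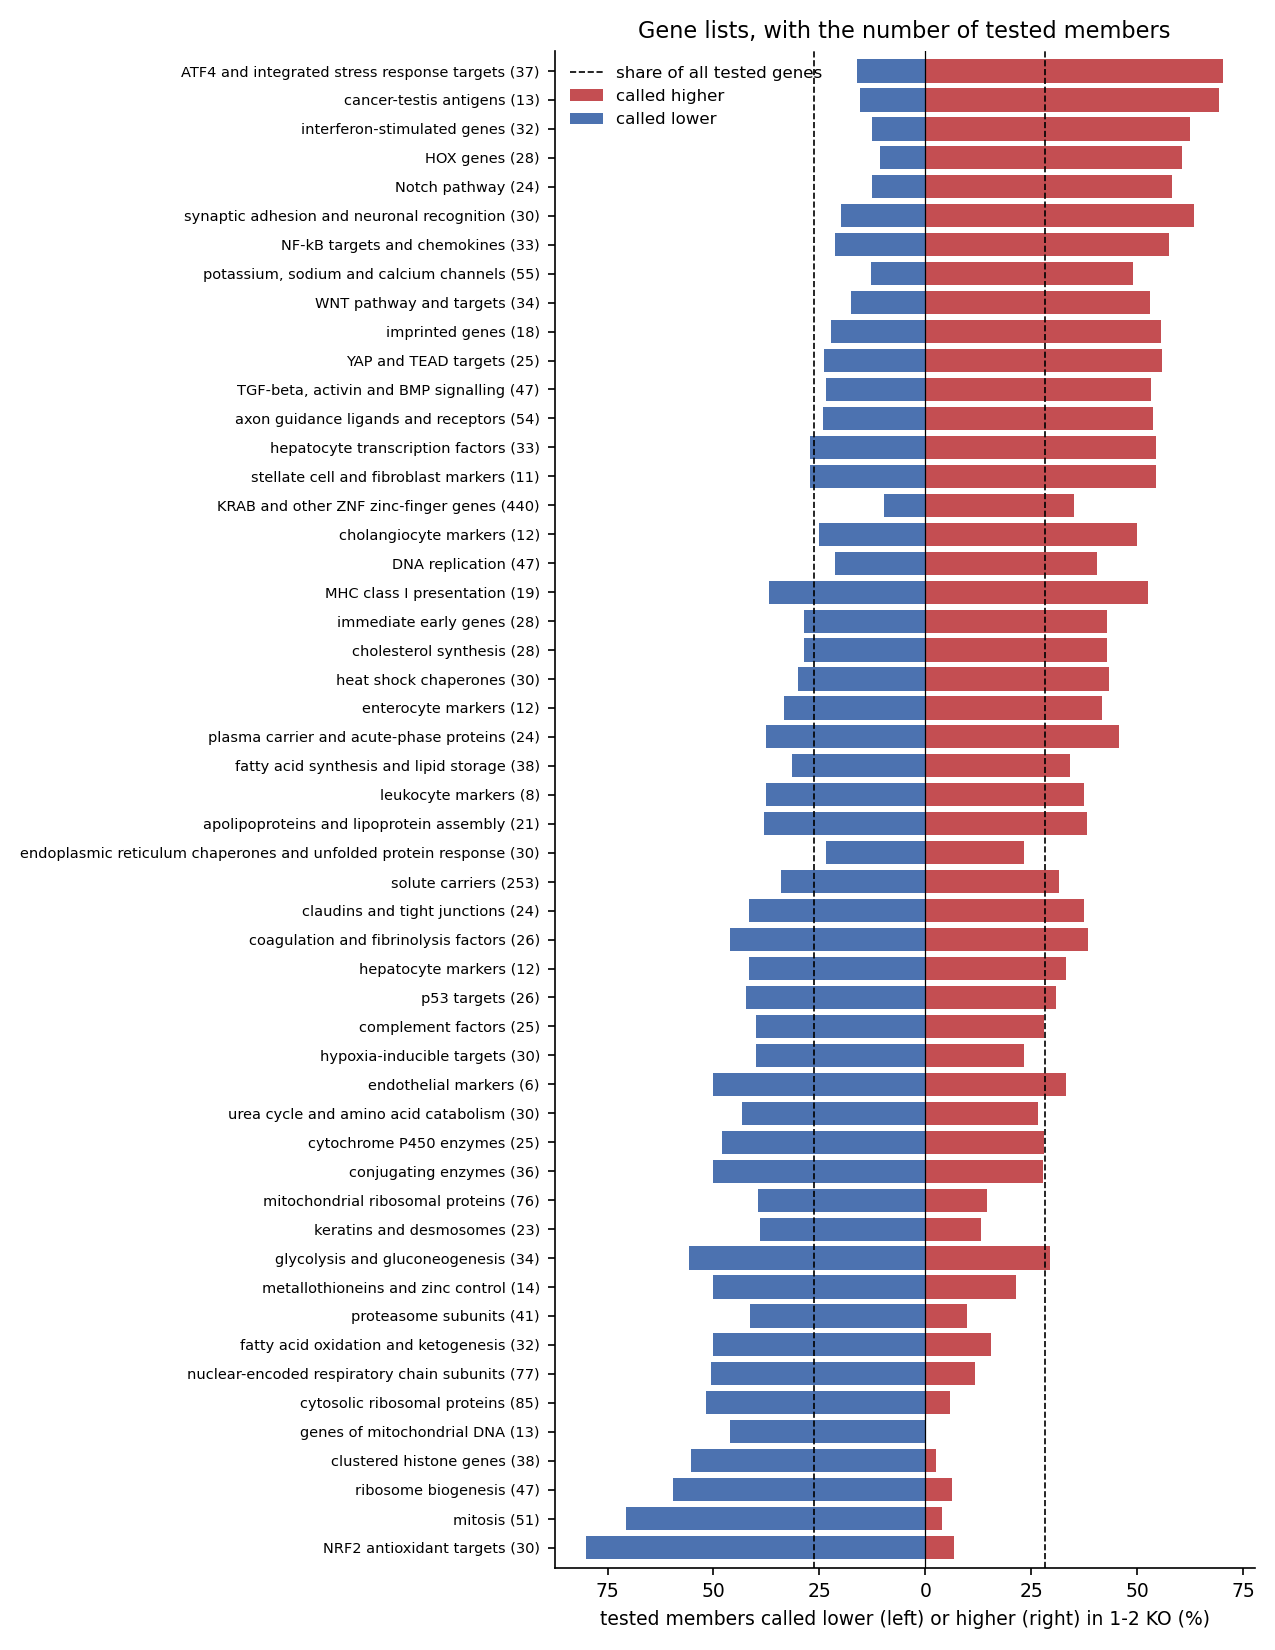
Bars show the percentage of tested members of each list that were called higher (red, to the right) or lower (blue, to the left) in 1-2 KO, ordered by the difference, with the number of tested members in brackets and dashed lines at 28.2% and 26.2%, the shares over all tested genes. The targets of ATF4 are at the top with 26 of 37 higher, and NRF2 antioxidant targets at the bottom with 24 of 30 lower.

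NRF2 is the transcription factor that cells use against oxidants, and its targets make glutathione, NADPH and detoxifying enzymes. Of 30 tested targets, 24 fell and 2 rose, with a median log2 fold change of -0.32. AKR1B10, an aldo-keto reductase, fell from 29.4, 30.3 and 28.6 to 4.61, 3.89 and 5.39 CPM (6.35-fold, log2 fold change -2.67, adjusted p = 5.78e-11). AKR1C1 fell 4.85-fold from 176, 186 and 177 CPM, but it has near-identical neighbours with which it could share reads, and it lies in a stretch of chromosome 10 that fell as a whole, as described below. SLC7A11, the cystine importer, rose 1.53-fold, and KEAP1, which holds NRF2 in check, rose from 76, 78.3 and 86 to 98, 87.6 and 90.1 CPM. Metallothioneins and zinc transporters had 3 upregulated and 7 downregulated members of 14. MT1E fell 2.03-fold, while SLC39A14, a zinc and iron importer, rose 1.41-fold.

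Genes of the cell cycle differed between its phases. Of 51 mitosis genes 36 fell and 2 rose (median log2 fold change -0.27). KIF2C, a kinesin that takes microtubules apart, fell from 139, 137 and 132 to 73, 78.4 and 83.3 CPM (1.74-fold), and CCNB1, the cyclin that drives entry into mitosis, 1.58-fold from 354, 366 and 344 CPM. KIF15, another spindle kinesin, rose 1.20-fold. Of 47 genes of DNA replication, 19 rose and 10 fell, with a median of 0.04. CCNE1, the cyclin of the start of replication, rose from 27.5, 26 and 26.9 to 40.6, 44 and 48 CPM (1.65-fold), and PRIM2, a primase subunit, fell 1.31-fold. Of 26 p53 targets 8 rose and 11 fell. CDKN1A, the p21 inhibitor of cyclin-dependent kinases, fell 2.70-fold from 9.42, 9.71 and 11.8 CPM, and PMAIP1, the death-promoting NOXA, rose 2.57-fold. Clustered histone genes, whose mRNAs mostly lack poly(A) tails and are caught poorly in these libraries, had 21 downregulated and 1 upregulated member of 38, with a median of -1.10. Their summed level was 177 to 180 CPM in WT and 37.2 to 43.9 CPM in 1-2 KO, and reads may be shared among copies. H2AC6 fell 6.54-fold.

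Ribosomal and proteasome lists held more downregulated than upregulated members, with small medians. Of 85 cytosolic ribosomal protein genes 44 fell and 5 rose (median log2 fold change -0.11), against 30 and 7 (median -0.05) when only library totals were used. Next to RPL37, RPS23 fell most, from 1086, 1115 and 1100 to 680, 733 and 740 CPM (1.53-fold). RPS14 rose 1.23-fold, and RPL8 rose from 643, 736 and 961 to 1146, 966 and 989 CPM with knockout libraries just above WT replicate 3. Of 47 ribosome biogenesis genes 28 fell and 3 rose (median -0.17). BRIX1 fell 2.00-fold, and TCOF1, the treacle protein of rRNA transcription, rose 1.33-fold. When only library totals were used, 8 ribosome biogenesis genes rose and 24 fell. Without replicate 1, 5 rose and 27 fell. Of 41 proteasome subunits 17 fell and 4 rose (median -0.06), against 9 and 7 (median -0.01) when only library totals were used and 13 and 4 without replicate 1. The subunits that rose most were PSMB9 and PSMB8, the immunoproteasome catalytic subunits, 8.06-fold to 3.42, 3.44 and 4.12 CPM and 4.89-fold to 6.67, 6.48 and 7.64 CPM.

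Of 77 nuclear-encoded respiratory chain subunits, 39 fell and 9 rose (median log2 fold change -0.15), against 32 and 15 (median -0.10) when only library totals were used. ATP5F1C, a subunit of ATP synthase, fell from 258, 282 and 261 to 123, 129 and 133 CPM (2.08-fold) and NDUFS4, of complex I, 2.40-fold from 41.1, 42.7 and 41.1 CPM. Of the 13 genes of mitochondrial DNA 6 fell and 0 rose, with 7 not passing edgeR's test, which is 46.2% called and below the background. Their summed level went from 25530 to 33444 CPM among WT libraries and from 24983 to 27939 CPM among 1-2 KO libraries, so that the sums overlapped. Of 76 mitochondrial ribosomal proteins 30 fell and 11 rose (median -0.05). Without replicate 1, 31 fell and 5 rose, and when only library totals were used the median was 0.01. MRPS21 fell 2.07-fold from 44.6, 46 and 43.7 CPM. MRPL38 rose in the test, but its levels of 3.49, 4.69 and 13.3 CPM in WT and 21.6, 10.5 and 10.1 CPM in 1-2 KO overlapped, and without replicate 1 its log2 fold change was 0.58 with an adjusted p of 0.169 in edgeR. It was not called either without WT replicate 1 (0.67) or WT replicate 2 (0.79).

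Lists of carbon metabolism genes held DEGs in both directions. Of genes at 5 CPM or more 63.5% were DEGs, and fatty acid oxidation (65.6%) and fatty acid synthesis (65.8%) were near this share. Glycolysis and gluconeogenesis had 85.3% called and cholesterol synthesis 71.4%. Of 34 genes of glycolysis and gluconeogenesis 19 fell and 10 rose (median log2 fold change -0.21). PC, the pyruvate carboxylase that starts gluconeogenesis, fell 1.70-fold next to PKM, whereas HK1, a hexokinase of extrahepatic tissues, rose 4.39-fold to 5.98, 6.78 and 6.39 CPM and PDK2, which restrains pyruvate oxidation, 3.82-fold. Of 32 genes of fatty acid oxidation and ketogenesis 16 fell and 5 rose (median -0.13). ECI2 fell 1.70-fold, and CPT1A, which admits fatty acids to mitochondria, rose from 71.8, 72.9 and 70.1 to 124, 124 and 126 CPM (1.74-fold). Of 38 genes of fatty acid synthesis and storage 13 rose and 12 fell. FABP1, the liver fatty acid-binding protein, rose 2.48-fold to 78.8, 82.9 and 82.9 CPM, and CIDEC, of lipid droplets, fell 3.61-fold. Of 28 genes of cholesterol synthesis 12 rose and 8 fell, among them TM7SF2, which rose 1.74-fold, and IDI1, which fell 1.77-fold. Hypoxia-inducible targets had 12 downregulated and 7 upregulated members of 30, with a median log2 fold change of -0.05.

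Functions of the hepatocyte other than albumin moved in both directions. Among 24 plasma carrier and acute-phase proteins 11 rose and 9 fell, and HP, haptoglobin, fell 4.37-fold from 5.53 ± 0.241 CPM (SD, n = 3 libraries). Among 26 coagulation and fibrinolysis factors 10 rose and 12 fell. KNG1, kininogen, rose 2.30-fold and SERPINC1, antithrombin, fell 3.82-fold. Among 25 complement factors 7 rose and 10 fell, and MBL2, the mannose-binding lectin, fell 2.67-fold. Among 21 apolipoproteins and lipoprotein assembly factors 8 rose and 8 fell, with PLTP 2.34-fold higher and LCAT 1.70-fold lower. Of 33 hepatocyte transcription factors 18 rose and 9 fell, and the largest fall at a level above 20 CPM was that of NR1H4, the bile acid receptor FXR, from 60.5, 65.8 and 62 to 21.4, 20.8 and 22.3 CPM (2.91-fold, log2 fold change -1.54). ONECUT1 rose 1.77-fold. Of 36 conjugating enzymes 18 fell and 10 rose, and of 25 cytochrome P450 enzymes 12 fell and 7 rose. CYP7B1, of bile acid synthesis, rose 13.7-fold to 5.03, 5.37 and 5.34 CPM, and CYP2B6, of drug oxidation, fell 2.32-fold. Of 30 genes of the urea cycle and amino acid catabolism 13 fell and 8 rose, with ASS1, which joins citrulline and aspartate, 2.55-fold higher and HAL, the histidine ammonia-lyase, 3.50-fold lower. Solute carriers had 80 upregulated and 86 downregulated members of 253.

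ATF4 is the transcription factor of the integrated stress response, which cells mount when amino acids are short or proteins misfold. Of 37 tested targets, 26 rose and 6 fell (median log2 fold change 0.33). CHAC1, which degrades glutathione, rose from 3.42, 3.65 and 4.31 to 18.3, 18.3 and 18.9 CPM (4.87-fold, log2 fold change 2.29), and STC2, a secreted glycoprotein, 3.51-fold from 23.6, 21.9 and 21.2 CPM. The members that fell included NUPR1 (3.11-fold) and GDF15 (2.01-fold), both known as stress-induced. Chaperones of the endoplasmic reticulum, the other arm of the response to misfolded protein, had 7 upregulated and 7 downregulated members of 30, which is 46.7% called. HERPUD1 rose 1.69-fold and XBP1 fell 1.55-fold. Of 30 heat shock chaperones 13 rose and 9 fell. HSPB1 was at 145 CPM in 1-2 KO replicate 1 and at 79.5 and 82.9 CPM in the others, against 63.6 to 78.1 CPM in WT. Without replicate 1 its log2 fold change fell from 0.58 to 0.24.

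Lists of immune genes held more upregulated than downregulated members, but their summed levels did not all rise. The sum of interferon-stimulated genes was 657 to 674 CPM in WT and 805 to 839 CPM in 1-2 KO. For MHC class I presentation it was 2077 to 2106 CPM in WT and 1915 to 1950 CPM in 1-2 KO. For NF-kB targets and chemokines it was 1463 to 1519 CPM in WT and 1457 to 1507 CPM in 1-2 KO. Of 32 interferon-stimulated genes, 20 rose and 4 fell (median log2 fold change 0.32). OAS3, which senses double-stranded RNA, rose from 8.24, 8.59 and 8.65 to 47.5, 48.9 and 49.1 CPM (5.71-fold, log2 fold change 2.51, adjusted p = 4.53e-13). IFI6 rose 5.87-fold to 4.01, 2.01 and 1.92 CPM, with replicate 1 the highest, and had a log2 fold change of 2.15 without it. IFI35 fell 6.58-fold from 5.50, 5.23 and 4.95 CPM and GBP2, a GTPase, 2.17-fold. Of 19 genes of MHC class I presentation 10 rose and 7 fell, and HLA-B rose 8.20-fold to 3.39, 3.26 and 2.05 CPM, with reads that other HLA genes could share. Of 33 NF-kB targets and chemokines 19 rose and 7 fell. ICAM1, a ligand for leukocytes, fell from 236, 230 and 237 to 108, 107 and 102 CPM (2.22-fold) and CCL20 1.77-fold, and IL11 rose 4.30-fold to 3.61, 3.42 and 3.47 CPM. LTB, lymphotoxin beta, was at 27.2, 17.3 and 15.7 CPM in 1-2 KO and at 6.40 to 6.85 CPM in WT, again with replicate 1 on top. Of 28 immediate early genes 12 rose and 8 fell. JUND was at 38.1, 22.2 and 21.2 CPM in 1-2 KO and at 13, 15 and 19.3 CPM in WT, and its log2 fold change of 0.79 was 0.47 without replicate 1.

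Signalling pathways of development had more upregulated than downregulated members. Of 24 genes of the Notch pathway 14 rose and 3 fell (median log2 fold change 0.43). The ligand JAG2 rose 7.67-fold to 4.06, 2.86 and 2.72 CPM and the target NRARP 5.71-fold, while RBPJ, the DNA-binding factor of the pathway, fell from 211, 216 and 208 to 119, 128 and 127 CPM (1.70-fold). Of 34 WNT genes 18 rose and 6 fell, and LEF1, a transcription factor of the pathway, rose 20.4-fold to 2.54, 2.34 and 2.70 CPM. Of 47 genes of TGF-beta, activin and BMP signalling 25 rose and 11 fell. INHBE, the activin subunit of the liver, rose from 16.8, 14.9 and 16 to 144, 152 and 154 CPM (9.45-fold, log2 fold change 3.24, SE 0.05, adjusted p = 8.29e-15), and BMPR1B, a BMP receptor, fell 3.79-fold. HAMP, hepcidin, the hormone that locks iron in cells and a BMP target, rose 3.67-fold to 5.86, 7.53 and 10.6 CPM, with replicate 1 the lowest. Of 25 targets of YAP and TEAD 14 rose and 6 fell, with IGFBP3 1.81-fold higher and TGFB2 1.68-fold lower.

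Lists of genes that are mostly silent in liver held many of the large rises. Genes silent in WT had enough counts for the test only where a knockout line expressed them, so that the filter itself favours rises in such lists. Tested were 13 of 100 listed cancer-testis antigens, 30 of 55 synaptic adhesion genes, 54 of 71 axon guidance genes and 55 of 140 channels. Of the 13 tested cancer-testis antigens 9 rose and 2 fell, with a median log2 fold change of 1.98. MAGEA6 rose from 0.0503, 0.107 and 0.0634 to 8.71, 9.19 and 9.41 CPM and MAGEA3 at least 64.4-fold, though the near-identical genes of this family could share reads, and MAGEC2 fell 11.1-fold from 5.13, 4.64 and 4.31 CPM. Of 28 HOX genes 17 rose and 3 fell (median 0.40), and HOXC12 rose 7.81-fold to 4.61, 5.83 and 5.66 CPM. Of 30 genes of synaptic adhesion and neuronal recognition 19 rose and 6 fell (median 1.10), with NLGN1, a neuroligin, at least 50.4-fold higher and LRRN1 1.81-fold lower. Of 54 axon guidance genes 29 rose and 13 fell, and EFNA5, a ligand of EPH receptors such as EPHA7, was at least 48.5-fold higher at 4.13, 3.92 and 4.09 CPM. Of 55 potassium, sodium and calcium channels 27 rose and 7 fell (median 0.58), and KCNH2 rose 7.71-fold. Of 18 imprinted genes 10 rose and 4 fell. Of 440 zinc-finger genes 154 rose and 43 fell (median 0.14), which is 44.8% called and below the background. In epithelial structures, keratins and desmosomes had 3 upregulated and 9 downregulated members of 23, and KRT23 fell from 34.5, 38.3 and 36.6 to 8.05, 7.58 and 8.14 CPM (4.60-fold). Tight junction genes had 9 and 10 of 24, with CLDN1, an entry factor of hepatitis C virus, 1.53-fold higher.

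The changes were not spread evenly over the genome. Chromosome 6 had a median log2 fold change of -0.27 over 952 tested genes, of which 475 fell and 140 rose, and chromosome 10 a median of -0.22 over 655 genes, of which 335 fell and 83 rose. The medians stayed between -0.29 and -0.26 and between -0.25 and -0.21 whichever library was left out. The medians of the other autosomes and of chromosome X lay between -0.13 on chromosome 1 and 0.14 on chromosomes 19, 20 and 22. HSP90AB1, a chaperone, and TUBB, a tubulin, were among the highest DEGs on chromosome 6 and fell 1.32-fold and 1.28-fold, as did PSAP on chromosome 10 (1.31-fold), RPS24 (1.23-fold) and ITGB1 (1.25-fold). Within 274 stretches of 10 Mb with at least 20 tested genes, 137 had a median within 0.1 of zero, 18 were under -0.3 and 2 over 0.3. The 18 low stretches held 908 tested genes, of which 554 fell and 86 rose, and all genes outside of these 20 stretches numbered 16169, of which 4679 rose and 3946 fell.

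Several of the downregulated DEGs lay in such stretches. The stretch of chromosome 5 from 40 to 50 Mb had a median of -0.90, with 28 of 38 genes lower, and holds RPL37 (log2 fold change -1.02), C6 and C7. BRIX1 lies in the next one, from 30 to 40 Mb, with a median of -0.88, and NDUFS4 (-1.27) in that from 50 to 60 Mb, with a median of -0.75. The first 10 Mb of chromosome 10 had a median of -0.92 with 34 of 41 genes lower, and hold ATP5F1C (-1.06), IDI1 (-0.82), AKR1C1 (-2.28) and KLF6 (-0.68). H1-2, H2AC6 and ZSCAN31 lie on chromosome 6 from 20 to 30 Mb, where the median was -0.41. Other genes named above also lay in low stretches. PRIM2 had a log2 fold change of -0.39 where the median was -0.40. For CCNB1 the values were -0.66 and -0.32, for RBPJ -0.77 and -0.41, for ECI2 -0.77 and -0.43 and for CD38 -3.54 and -0.42. VTRNA1-2 itself lay in the stretch with the highest median, chromosome 5 from 140 to 150 Mb, where 67 of 104 tested genes rose and 5 fell, with a median of 0.45. Whether the copy number of these stretches differs between the lines was not tested.

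1-2 KO replicate 1 was the library farthest from the other two of its line for 5478 (52.2%) of the 10498 genes that averaged 5 CPM or more in 1-2 KO, against 24.4% for replicate 2 and 23.4% for replicate 3. To describe this, the log2 level of each gene in a library was compared with the mean of the other 2 libraries of its line, and a gene was taken to depart where the difference was over 0.5. No test was run, since the library was singled out with results known. Replicate 1 departed for 210 genes (2.00%), above the others for 208 and below them for 2, and for 40 genes the difference was over 1. Replicate 2 was above for 0 and below for 43 genes, and replicate 3 above for 2 and below for 54. As each library is set against the mean of the other 2, a gene high in 1 library also places the others below. The counts of a line are thus not independent. In WT, replicate 3 was the library with the most genes above, 117 against 6 and 0, and the libraries of 1-1 KO departed for 0 to 3 genes. The excess was thus on the high side and shared by 1 library of each of the compared lines.

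**Figure D3:**
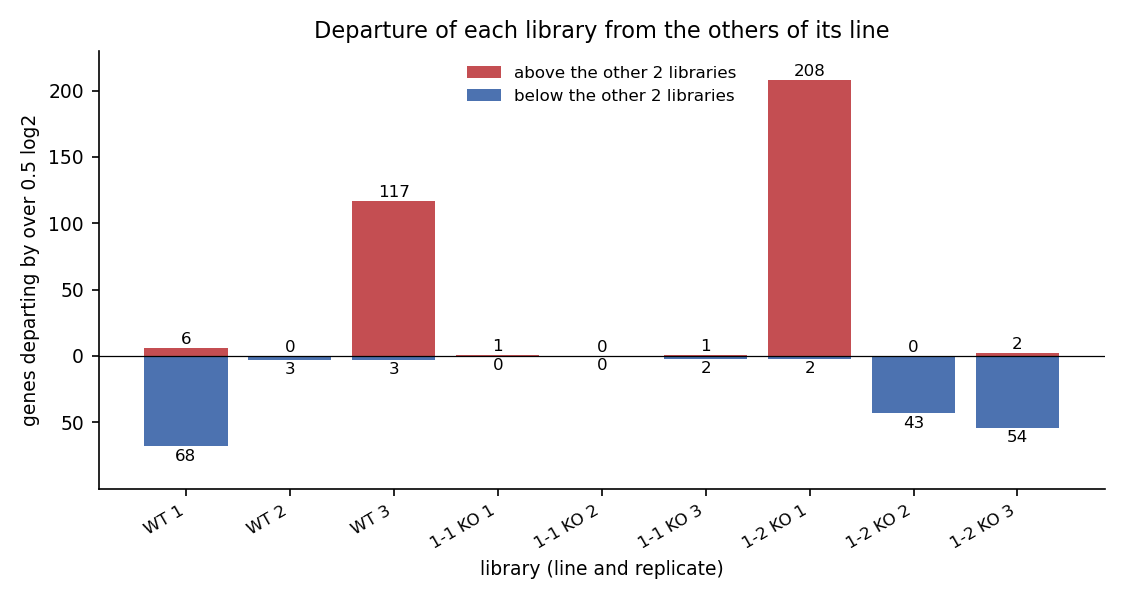
For each of the 9 libraries, bars give the number of genes whose log2 level lay by over 0.5 above (red, upward) or below (blue, downward) the mean of the other 2 libraries of the line, for genes averaging 5 CPM or more in that line. 1-2 KO replicate 1 has 208 genes above and 2 below, and WT replicate 3 has 117 above and 3 below.

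The genes that departed most were pseudogenes and protein-coding genes with a short exon length. PRELID1P1, a pseudogene of PRELID1, was at 24.2 CPM in replicate 1 and at 0.829 and 0.848 CPM in replicates 2 and 3, and WT held 0.251, 0.613 and 1.68 CPM. FTH1P3, a pseudogene of the ferritin heavy chain, was at 159, 10.9 and 10 CPM in 1-2 KO and at 2.94, 3.89 and 18.9 CPM in WT. FTH1, the ferritin heavy chain itself, which stores iron in oxidized form, was at 1863, 384 and 398 CPM in 1-2 KO and at 388, 372 and 526 CPM in WT. In each of these, replicate 1 was the highest library by far and WT replicate 3 the highest of WT. RPS2P46, with 1265, 149 and 134 CPM in 1-2 KO and 73.7, 95 and 169 CPM in WT, and RANBP1P1, with 82.4, 21 and 13.3 CPM and 5.08, 8.43 and 25 CPM, had the same order. So did the pseudogenes ENSG00000219470 and HMGN1P38 and the protein-coding genes TMEM160, HINT2, which encodes a mitochondrial hydrolase, and EMC6, of a complex that inserts membrane proteins.

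The call of these 10 genes depended on replicate 1. They were picked for a high level in it, so that lower log2 fold changes without it follow from the choice. Together with it, 7 of them were upregulated DEGs, among them FTH1P3 (log2 fold change 2.87, adjusted p = 0.0170 in edgeR) and RPS2P46 (2.20, adjusted p = 0.0109), and without it none passed edgeR's test, with log2 fold changes of 0.35 for FTH1P3 and 0.34 for RPS2P46. For FTH1P3 the call was also lost without WT replicate 1 (2.44) or WT replicate 2 (2.51). For FTH1 the log2 fold change was 1.04 (SE 0.44, adjusted p = 0.0591 in edgeR) with replicate 1 and -0.13 without it. Other genes of iron handling, looked up after the values of FTH1 were seen, did not share this. HAMP lay 0.60 below the other libraries in replicate 1, as described below. FTL, the ferritin light chain, was at 3644, 3686 and 3977 CPM in 1-2 KO, and TFRC, the transferrin receptor, at 830, 897 and 858 CPM.

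**Figure D4:**
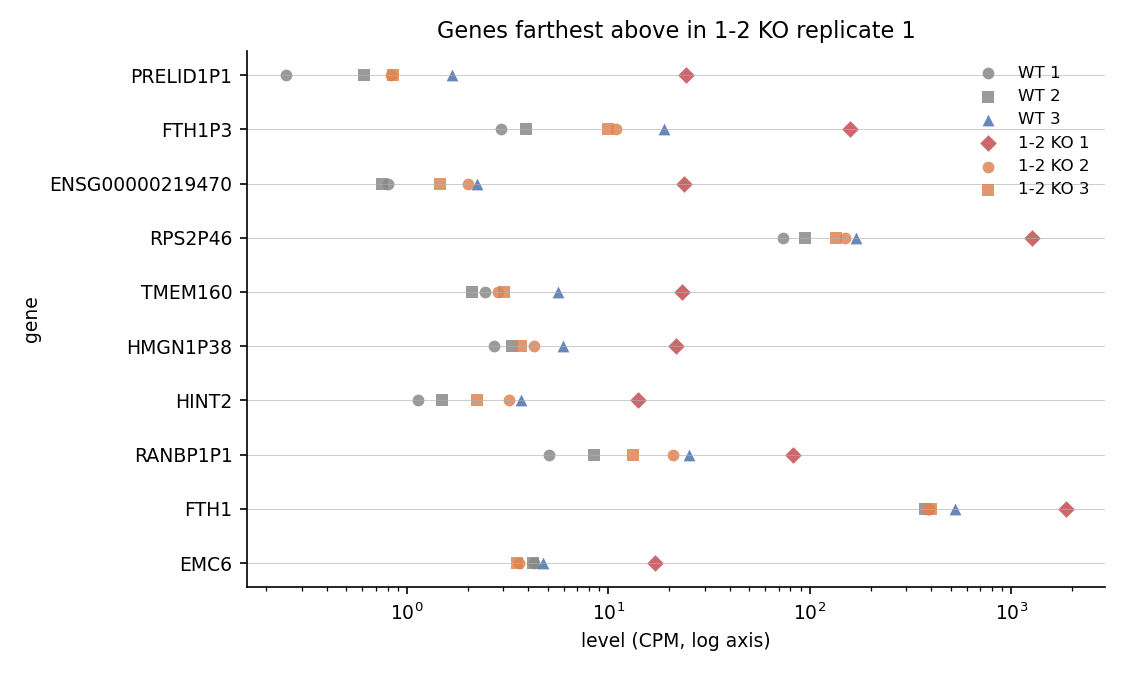
The level in CPM on a log axis of the 10 genes that were farthest above in 1-2 KO replicate 1 (red diamonds), with 1-2 KO replicates 2 and 3 in orange, WT replicates 1 and 2 in grey and WT replicate 3 as blue triangles. Replicate 1 is to the right of every other library in each gene, and WT replicate 3 is the highest of WT.

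Of the 208 genes above in replicate 1, 19 were pseudogenes, or 9.13%, compared to 2.29% of all 10498 genes. All 19 were processed pseudogenes, which are copies of mRNAs and carry no introns. Each of them shared at least 1 stretch of 50 nt, the length of 1 read, with a transcript of a protein-coding gene. So did 200 of the other 221 pseudogenes at this level. The median share of such stretches was 27.9% for the 19, compared to 16% for the other 221. RPS2P46 shared 48.6% of its stretches with RPS2, FTH1P3 shared 18.9% with FTH1 and PRELID1P1 shared 26.7% with PRELID1. The source gene did not depart alike in all cases. FTH1 was 2.25 above on the log2 scale in replicate 1, where 6 of 8 measured genes and pseudogenes of its family departed, and HSPB1 was 0.84 above beside 2.11 for HSPB1P2. RPS2, the source of 6 of the pseudogenes, differed by -0.01, at 815, 779 and 860 CPM in 1-2 KO. PRELID1 differed by 0.32, HMGN1 by 0.42 and RANBP1 by 0.33. Over all genes, processed pseudogenes took 0.717% of the counts in 1-2 KO replicate 1 and between 0.531% and 0.561% in the other 5 libraries. How the counting treated reads that match several places is not given in the sources used here, and its part in these values was not tested.

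The departing genes also shared a base composition and a length. GC content was read from the longest transcript of a gene, and its median was 62.3%, compared to 47.1% over all genes at this level. Exon length was that of all annotated exons of a gene together, and its median was 2538 nt, compared to 5608 nt. With the genes split into 5 equal bins, 146 of the 208 were in the bin with the highest GC content, from 57% upward. In the bin with the shortest exon length, up to 3119 nt, were 126. The shift was not confined to the departing genes. In replicate 1 the median difference from the other libraries was -0.049 in the bin with the lowest GC content, -0.067 in the middle and 0.089 in the highest. In WT replicate 3 the median went from -0.055 in the lowest to 0.107 in the highest bin, and in replicate 2 of 1-2 KO and of WT it went the other way, to -0.077 and -0.088. The part of GC content in the calls was not tested. By length, replicate 1 went from 0.002 in the shortest to -0.063 in the longest bin, and WT replicate 3 from 0.028 to -0.026.

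**Figure D5:**
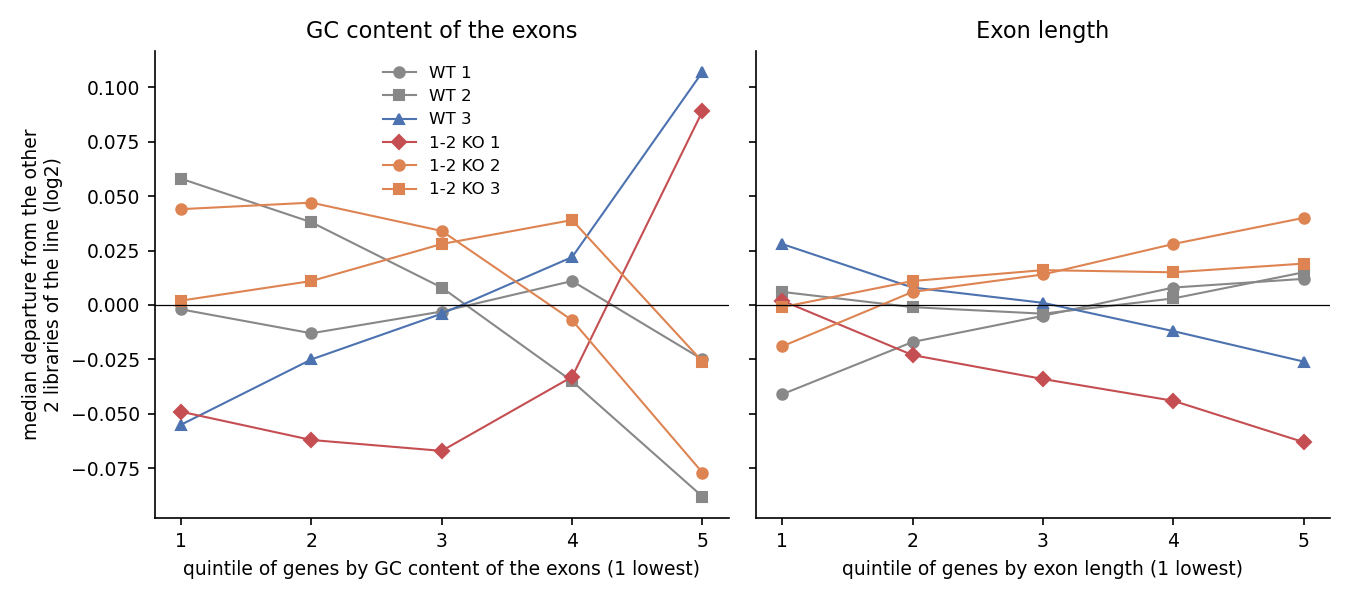
Median difference of a library from the other 2 of its line on the log2 scale (y) over 5 equal bins of the genes, for the 3 WT and 3 1-2 KO libraries. Genes are ordered by GC content of their longest transcript (left) or by the length of all their annotated exons together (right). 1-2 KO replicate 1 (red) and WT replicate 3 (blue) are both highest in the bin with the highest GC content, at 0.089 and 0.107.

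1-2 KO replicate 1 and WT replicate 3 departed in overlapping sets of genes. Of the 208 genes above in replicate 1, 204 were also above the other WT libraries in WT replicate 3, and 82 of them by over 0.5. Of all 10498 genes, 5232 were above in WT replicate 3 and 168 by over 0.5. Among genes that had 5 CPM in both lines, 63 were above by over 0.5 in both libraries, which is 30.3% of the set of 1-2 KO replicate 1 and 53.8% of the 117 of WT replicate 3. Across 10435 genes the deviations of these libraries from their line had a Pearson r of 0.629, a description across genes, which are not independent replicates. WT replicate 3 was also the shallowest of the libraries.

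The departure had a small effect on the number of DEGs. Of the 208 genes above in replicate 1, 100 were DEGs (48.1%, against 63.5% of all genes at this level), 89 upregulated and 11 downregulated. Without replicate 1, 78 were DEGs, 52 upregulated and 26 downregulated, and the median log2 fold change of the 208 genes went from 0.44 to 0.10. Since the 208 genes were picked for a high level in replicate 1, a fall of this median without it follows from the choice. In 131 of the 208 the departure took replicate 1 farther from WT and in 77 toward WT. Among all DEGs, 851 lost the call without replicate 1 and 537 genes gained it. The loss was no larger than for the other knockout libraries, with 866 calls lost without replicate 2 and 878 without replicate 3, and 1034, 1086 and 729 were lost without WT replicates 1, 2 and 3. Replicate 1 was the only knockout library inside the WT range for 61 upregulated DEGs, compared to 89 for replicate 2 and 61 for replicate 3. For downregulated DEGs the numbers were 87, 38 and 35. WT replicate 3 alone kept 214 upregulated DEGs from having separate groups, compared to 40 for WT replicate 1 and 42 for WT replicate 2. For downregulated DEGs the numbers were 64, 30 and 60 for WT replicates 1, 2 and 3. Without both of these libraries, chosen after seeing the data, 4761 DEGs were upregulated and 4573 downregulated.

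Genes below the other libraries in replicate 1 were few. HAMP was the lowest, at 0.60 below, and UBA52P7, a pseudogene, followed at 0.52 below. It was a downregulated DEG, but not without replicate 1, where its log2 fold change was -0.21, nor without WT replicate 1, where it was -0.32. The next 8, which did not pass 0.5, were PKMP4, PARL, DGKK, C2orf74, WIPF1, TMEM169, ZEB2 and FREM2, between 0.47 and 0.35 below. For DGKK, a diacylglycerol kinase that rose 5.83-fold, the levels of 39.2, 49 and 53.3 CPM in 1-2 KO all lay above the 7.33 to 8.75 CPM of WT. For ZEB2, a repressor of epithelial genes that rose 2.76-fold, they were 6.65, 8.94 and 8.09 CPM against 2.45 to 3.24 CPM. Of the gene lists, mitochondrial ribosomal proteins had 5 genes above in replicate 1 among the 74 members at 5 CPM or more, zinc-finger genes 6 of 250, NF-kB targets 3 of 26, immediate early genes 3 of 20 and heat shock chaperones 1 of 29. None was above among 51 mitosis genes, 28 genes of glycolysis and 17 plasma proteins. Over all genes at this level 208 of 10498 were above. Zinc-finger genes and heat shock chaperones were near this share, and lists as small as those with none could hold none at this share. Only 2 of the clustered histone genes reached this level, so that the departure of this list was not described.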

How the data were processed

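Libraries were made by the authors from total RNA of Huh-7 cells with a TruSeq stranded mRNA kit and sequenced in pairs of 2 × 50 nt. The authors used STAR for alignment to GRCh38 and featureCounts for gene-level counting. The deposited values are raw read counts, without normalization or filter. Versions of these tools, the strand setting and the treatment of multi-mapping reads are not given in the sources used here. Positions, exon lengths (all annotated exons of a gene together) and GC content (of its longest transcript) came from GENCODE 44, in which 60463 of 60664 identifiers were found.

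The counts of all 9 libraries were fitted in edgeR 4.0.16 (R 4.3.3) with a term per line, TMM and filterByExpr (minimum count 10, minimum total 15). The 1-2 KO and WT lines were compared with the quasi-likelihood test. SE is the log2 fold change divided by the root of F. The floor was 3 counts: a gene not above it in any library of a line was taken as at the floor. Departures used log2 CPM with a prior count of 2. Lists were counted, not tested.

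Genes named were, among protein-coding or lncRNA DEGs with separate groups, the 8 largest gains and losses of CPM, the 8 largest rises and falls at 5 CPM or more with over 3 counts in every library, and the 6 with the highest CPM among genes at the floor in the other line. Added were up to 2 DEGs per list and direction with a mean of at least 1 CPM, cell type markers, the 10 genes highest and lowest by departure in replicate 1, 3 genes on each chromosome with a median beyond 0.2, and the VTRNA genes. The members, lists and rules were chosen with earlier results of these data known. The iron genes and source genes of pseudogenes were chosen after their values were seen. A result of this rule that is withheld is not reported here. The fit was tested on simulated counts before use.

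The replicate numbers were not used to pair the libraries in the main fit. Alternatives were DESeq2 1.42.0, other scalings, filters and thresholds, the 6 libraries alone, a replicate term and leaving out each library. Shared stretches of 50 nt were exact matches to GENCODE 44 protein-coding transcripts. Python 3.11.15 with pandas 2.3.3, numpy 2.4.6, biopython 1.88 and matplotlib 3.10.9 made tables and figures.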

Additional observations from a re-analysis of the deposited data

How the results depend on the processing

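The counts of upregulated and downregulated DEGs stayed within 1.5 times under every alternative run. DESeq2's Wald test called 4180 higher and 4213 lower, and an adjusted p under 0.01 left 3763 and 3629. With each library left out in turn, upregulated DEGs numbered 4364 to 4693, downregulated DEGs 4176 to 4684, those changed by over 1 on the log2 scale 1427 to 1579 and 526 to 572, and the medians of chromosomes 6 and 10 were -0.29 to -0.26 and -0.25 to -0.21. Asking for 10 or more counts in all libraries removes genes that are silent in 1 line and left 650 higher and 317 lower by over 1 on the log2 scale. Scaling by library size alone moved the share of upregulated DEGs from 51.8% to 60.1% and the medians of chromosomes 6 and 10 to -0.21 and -0.17, and with genes of at least 5 CPM the median of chromosome 10 was -0.26. It turned the sign of the median in 2 of the 52 lists and moved upregulated members to 6 for mitosis, 7 for keratins and desmosomes (5 without 1-2 KO replicate 1), 20 for fatty acid synthesis and 12 for endoplasmic reticulum chaperones, and downregulated members to 2 for imprinted genes. The departing genes of 1-2 KO replicate 1 numbered 40 with a threshold of 1 on the log2 scale, 461 at a mean of at least 1 CPM, of which 400 were above, 76 at 20 CPM, and 235 with library size alone. Of 270 named genes with a call, 14 lost it without 1-2 KO replicate 1, 13 and 14 without WT replicates 1 and 2, and 1 to 3 without each of the other libraries, and none changed direction.

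With a term for the replicate block, 4642 DEGs were higher and 4344 lower, and 7 of the named genes lost the call. The deviations of libraries with the same number had correlations across genes of -0.51, 0.337 and -0.486. Deviations within a line are not independent of each other, so these values cannot show whether libraries of the same number belong together. The sources used here do not say.

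With 32384469 to 41000063 counts in a library, folds of genes at the floor are bounds only.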
